A study of Mus musculus with 13 samples.

Results

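M295 is a cultured mouse T-cell acute lymphoblastic leukaemia (T-ALL) line, and its single microRNA array was set against the 6 arrays of primary T-ALL in the same series. The miRNAs described are those above background on M295 or on all 6 primary T-ALL arrays. They number 258 of the 1122 mouse miRNAs on the array. Of these, 110 were above background on M295 and all 6 T-ALL arrays, 147 on M295 but not on every T-ALL array, and 1, miR-451, on all 6 T-ALL arrays but not on M295. One array gives no spread, so M295 enters no test, and its values are read against the range of the primary arrays.

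All cells were of the C57BL/6 strain. The 3 early-stage (ES) and 3 late-stage (LS) T-ALL arrays hold sorted CD4+CD8+ spleen cells of bone marrow chimeras carrying N1ICD, the intracellular, active part of Notch1. DN (CD4-CD8-) and DP (CD4+CD8+) thymocytes, an earlier and a later stage of T-cell development, were sorted from thymus and have 3 arrays each. The 3 arrays of each primary group are biological replicates, M295 has 1, and the labels used here give neither the line's driver nor its surface markers. The labels give M295 the tissue spleen and a cell-culture source, and the primary leukaemias were sorted from spleen, so line and culture cannot be told apart in any difference below. Animal ages are not given in the sources used here.

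A miRNA is a short RNA that lowers the output of messenger RNAs matching its seed, bases 2 to 8 from the 5′ end. Each precursor hairpin gives a 5p and a 3p arm, and the arms of one hairpin can differ widely in level. In developing thymocytes miR-181a is known to tune receptor signalling and is high at the DP stage. In T-ALL the miR-17~92 cluster is known as oncogenic and miR-150 and miR-31 as tumour-suppressive.

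The sequences below are RefSeq's mature miRNAs (build GRCm38.p6), found by name for 188 of the 258 miRNAs. The first set is shown because it carried a feature common among the miRNAs that were highest on M295, a UG repeat (UGUGUG, in capitals), which starts at or beyond the end of the seed in miR-672-5p, miR-32-3p, miR-3082-5p and miR-206-3p.
miR-672-5p: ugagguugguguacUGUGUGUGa
miR-32-3p: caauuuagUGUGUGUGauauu
miR-466j: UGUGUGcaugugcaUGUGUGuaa
miR-669n: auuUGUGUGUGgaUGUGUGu
miR-1187: uaUGUGUGUGUGuaUGUGUGuaa
miR-574-5p: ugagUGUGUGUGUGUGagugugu
miR-3082-5p: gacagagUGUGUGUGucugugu
miR-206-3p: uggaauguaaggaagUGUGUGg

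The second set holds miRNAs with the matching CA repeat (ACACAC, in capitals). By values alone they were below all 6 T-ALL arrays on M295. None was above background on all 6, so none counts as lower under the rule given below.
miR-467f: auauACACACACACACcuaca
miR-466q: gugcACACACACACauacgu
miR-466i-3p: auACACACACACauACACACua

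The third set shows, with the seed in capitals, miRNAs outside these repeats that stood beyond the T-ALL arrays in either direction.
miR-210-3p: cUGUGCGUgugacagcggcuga
miR-96-5p: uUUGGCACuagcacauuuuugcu
miR-182-5p: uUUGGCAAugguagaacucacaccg
miR-183-5p: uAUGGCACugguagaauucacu
miR-449a-5p: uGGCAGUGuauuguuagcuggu
miR-128-3p: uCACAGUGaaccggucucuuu
miR-15a-5p: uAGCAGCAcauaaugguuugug
miR-15b-5p: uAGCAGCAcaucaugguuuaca
miR-16-5p: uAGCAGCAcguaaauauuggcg

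On GRCm38.p6, miR-210-3p is at chr7:141221407-141221428 on the minus strand, in no other annotated gene's span. miR-672-5p, at chrX:104116228-104116250 (minus), lies within the span of Nexmif, and miR-32-3p, at chr4:56895232-56895252 (minus), within that of Tmem245. miR-96-5p, miR-182-5p and miR-183-5p form a cluster on the minus strand of chromosome 6, within Mirc35hg, with 3520 bases between miR-182-5p and miR-96-5p and 183 between miR-96-5p and miR-183-5p. miR-449a-5p, at chr13:113037549-113037570 (plus), is within Cdc20b. miR-128-3p has 2 loci, within R3hdm1 at chr1:128202404-128202424 (plus) and Arpp21 at chr9:112118644-112118664 (minus), and the array cannot separate the copies.

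Signals are given as log2 of the background-subtracted signal relative to the array's 75th percentile, with a floor at -7.59, and a difference of 1 is 2-fold. The M295 array had the most mouse miRNAs above background, 257, against 115 (ES 1) to 244 (ES 3) on the T-ALL arrays. Its signal at the 75th percentile was 2186 scanner units, within the 1354 to 2260 of the primary arrays. The ES 1 array stood apart, with a standard deviation of 18.7 units among its negative controls against at most 7.11 elsewhere and 5.44 on M295. Because a miRNA had to be above background on all 6 T-ALL arrays to count as lower on M295, the noisy ES 1 array limits that side, and values without it are given where it matters. ES 3 also stood apart, through miR-223 as described with the marker lists. M295 shared its slide with 6 primary arrays, among them 4 of T-ALL (ES 1, ES 2, LS 1 and LS 2).

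M295 lay above all 6 T-ALL arrays on 89 miRNAs (34.5% of the 258) and below all 6 on 42 (16.3%). It was at least 2-fold beyond the nearest T-ALL array on 46 miRNAs on the high side (17.8%) and 3 on the low side (1.16%). On 127 miRNAs it was inside the range. The 147 miRNAs above background on M295 but not on all T-ALL arrays can, by the way they were chosen, count as above or inside only, and they gave most of the high side. Among the 110 miRNAs above background on all 7 arrays, M295 was above the range on 16 (14.5%) and below it on 41 (37.3%), and at least 2-fold beyond on 8 (7.27%) and 2 (1.82%). The median difference of M295 from the T-ALL mean over these 110 was -0.35, so a single family slightly below the range is not unusual here. Nearest the threshold, miR-9-5p, miR-183-5p and miR-207 lay 1.002, 1.060 and 1.074 beyond the range, and miR-1901, miR-3064-5p and miR-3096-5p lay 0.988, 0.944 and 0.925 beyond it.

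The split between the sides moved with the scaling. With each array's 75th percentile taken over all mouse miRNAs, the median over the 110 shifted by -0.79, and 19 miRNAs were at least 2-fold above and 16 below. Of all miRNAs beyond 2-fold, 93.9% were on the high side in the main scaling, 54.3% in that one, 78.4% after quantile normalization and 77.4% in the authors' deposited value table. Of the 46 on the high side, 32 stayed above every T-ALL array under all 7 other scalings, 2 of which give the main values, and 15 stayed at least 2-fold above.

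**Figure D1:**
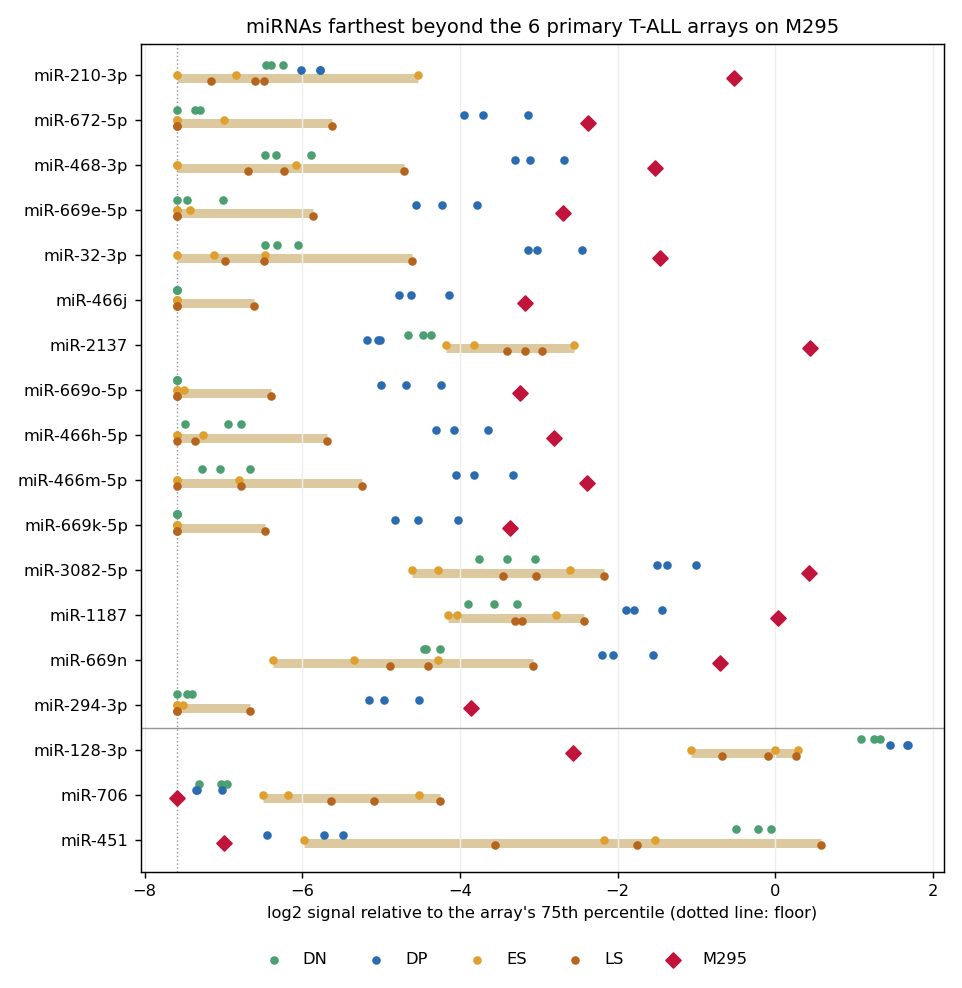
The log2 signal on each array (horizontal axis, relative to the array's 75th percentile) for the 15 miRNAs farthest above and the 3 at least 2-fold below the T-ALL arrays on M295. Diamonds are M295, dots single primary arrays and bars the range of the 6 T-ALL arrays. The DP arrays lie between the T-ALL range and M295 for most of the 15, with miR-210-3p and miR-2137 as exceptions.

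The miRNA farthest above primary T-ALL was miR-210-3p, known as the miRNA most regularly induced by low oxygen. Its level on M295 was -0.53. The T-ALL arrays lay between -7.59 and -4.54 (median -6.72), and 1 of the 6, ES 3, was above background. M295 was 16.1-fold above ES 3, the nearest array. DN arrays were at -6.46, -6.25 and -6.40 and DP arrays at -5.78, -5.78 and -6.02, so no primary group overlapped with the line. Both probes for miR-210-3p were higher on M295. The gap was at least 2.96 in each of the 21 settings computed.

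Next came miRNAs of a second kind, low in DN and T-ALL and high in DP. miR-672-5p was at -2.38 on M295, while the T-ALL arrays lay between -7.59 and -5.62 (median -7.59) with 1 of 6 above background. DN arrays were at -7.30, -7.59 and -7.36 and DP arrays at -3.95, -3.71 and -3.14. M295 was 9.44-fold above LS 3, the highest T-ALL array, and higher than all 3 DP arrays. miR-32-3p, the minor arm of the miR-32 hairpin, was at -1.46 on M295, between -7.59 and -4.61 (median -6.74) in T-ALL, at -6.06, -6.48 and -6.32 in DN and at -3.14, -3.02 and -2.46 in DP. It was 8.85-fold above LS 3. miR-468-3p and miR-669e-5p had the same order of groups, with M295 9.10-fold and 9.03-fold above LS 3. In both, as in miR-672-5p and miR-32-3p, LS 3 was the T-ALL array nearest to the line.

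The UG repeat was common among these miRNAs. Of the 46 miRNAs at least 2-fold above T-ALL, 26 had a sequence and 10 of those (38.5%) carried UGUGUG. Of the other 162 miRNAs with a sequence, 1 did (0.617%), and over all 1679 mouse mature miRNAs in the RefSeq table the share was 1.67%. Because 7 of the 11 with the repeat were chosen through M295, the count was repeated on 203 miRNAs chosen without M295 and without T-ALL, those above background on all 3 DN or all 3 DP arrays. Of these, 140 had a sequence. The 10 with the repeat in this set are among the same 11, so the second count is not independent of the first. miR-672-5p, miR-466j, miR-294-3p and miR-206-3p entered the 203 through the DP arrays, where they are high, and not through DN. In this set, above and below compare the values alone, whether or not an array was above background. M295 was above all 6 T-ALL arrays on 9 of the 10 with the repeat (90%), let-7b-5p being inside the range, and on 20 of the 130 without it (15.4%). It was below all 6 on 0 of the 10 and on 41 of the 130 (31.5%). That 0 was in part fixed beforehand and is no result. For miR-672-5p, miR-32-3p, miR-466j, miR-294-3p and miR-206-3p the lowest T-ALL array was at the floor of -7.59, so M295 could not be below it. The count of 9 was the same under all 8 scalings, while that of the 130 ran from 11 to 32. In the thymocytes the DP mean was above the DN mean for 11 of the 11 with the repeat and for 67 of the 177 without, with median differences of 2.25 and -0.09. The search was for these letters in the mature sequence as listed, was made after the values had been seen, and says nothing of what binds them. Probes for such repeats resemble each other, and signal from one miRNA on another's probe was not tested.

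Of the 10 with the repeat at least 2-fold above T-ALL, 3 were above background on M295 and all 6 T-ALL arrays. miR-3082-5p was at 0.43 on M295 against -4.61 to -2.18 in T-ALL (median -3.24), with DP arrays at -1.50, -1.38 and -1.01. miR-1187 was at 0.03 against -4.15 to -2.43 (median -3.25). miR-574-5p was at 0.82 against -2.99 to -1.22 (median -2.09), with DP arrays at -1.09 to -0.69. M295 stood 6.09-fold, 5.48-fold and 4.11-fold above the nearest T-ALL array and also above every DP array for these 3. miR-206-3p, otherwise known as a skeletal-muscle miRNA, was at -4.25 on M295 and on no T-ALL array above background, at least 3.80-fold higher, and was above background on all 3 DP arrays (mean -5.34). miR-294-3p, a miRNA of embryonic stem cells whose listed sequence holds the repeat near its 3′ end, was at -3.86, at least 5.01-fold above T-ALL, with a DP mean of -4.88. Its gap fell under 2-fold in 4 settings, among them 0.48 with the percentile over all mouse miRNAs and 0.16 with normexp background correction.

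The miRNAs named miR-297, miR-466, miR-467 and miR-669 are near-identical rodent miRNAs, many of them known to come from hairpins in an intron of the Polycomb gene Sfmbt2, and are called the Sfmbt2 type here. The array carries 61 such names, and 21 are among the 258. On M295, 15 of the 21 were above all 6 T-ALL arrays, 13 at least 2-fold (against 17.8% of all 258), and the count at 2-fold ranged from 5 (normexp) to 13 over the scalings. Of the 21, 20 were chosen through M295 alone and could not count as below, so these counts describe the choice as well as the line. One of them, miR-467f, was at -6.30 on M295, under the -5.11 to -4.11 of all 6 T-ALL arrays, of which ES 1 was not above background. Signal cannot be assigned to single names with certainty. Of the 61 names, 7 had a RefSeq entry by that name, and 0 of those lie within the span of Sfmbt2.

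The names of this type did not all stand on the same side of primary T-ALL. Among the 203 miRNAs chosen on the thymocyte arrays, 27 were of the Sfmbt2 type, 16 ending in 5p, 7 in 3p and 4 without an arm in the name. M295 was above all 6 T-ALL arrays on 12 of the 16 5p names (75%) and below all 6 on 0, against 25.1% and 27.6% of all 203. The 0 is no result for miR-669e-5p, miR-466m-5p, miR-466h-5p, miR-669o-5p, miR-669k-5p, miR-669f-5p, miR-466c-5p, miR-466f-5p and miR-297c-5p. Each had a T-ALL array at the floor, so M295 could not be below it. These names also entered the 203 through the 3 DP arrays and not through DN. By values alone, on the 7 3p names M295 was above all 6 on 0, below all 6 on 3 (42.9%) and lower than the T-ALL mean on 7. The 3 were miR-466h-3p, miR-466i-3p and miR-669p-3p. For each of them ES 1 was not above background, and for miR-466i-3p and miR-669p-3p neither was M295. The earlier rule for lower miRNAs needs all 6 T-ALL arrays above background, so under it these 3 do not count as below. Not every 5p name was high. miR-467a-5p and miR-467b-5p were at the floor on M295, with log2 differences from the T-ALL mean of -1.84 and -2.32, and miR-467e-5p was at that mean. The 4 names without an arm split by values alone. miR-466j and miR-669n were above all 6 T-ALL arrays, and miR-467f and miR-466q were below all 6. Over the 8 scalings 13 or 14 of the 16 5p names were higher than the T-ALL mean and 7 of the 7 3p names lower. This difference between the arms was noticed in the values, and the 203 miRNAs were chosen after it had been seen.

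miR-466i-5p shows the 5p side at high signal. It was at 2.17 on M295, between -1.33 and 0.27 in T-ALL (median -0.50), at -0.70, -0.99 and -1.42 in DN, and at 0.14, 0.12 and 0.37 in DP. The line was 3.73-fold above the nearest T-ALL array, ES 3. Its partner arm miR-466i-3p, with the CA repeat, was not above background on M295 (-7.09) and lay between -6.71 and -5.35 on the 6 T-ALL arrays. miR-669f-3p was at the floor on M295 and on ES 1 and between -5.53 and -2.36 on the other 5 T-ALL arrays, with means of -3.79 in DN and -4.40 in DP. Its 5p arm miR-669f-5p was at -4.10 on M295, at or under -7.35 in T-ALL, and at a mean of -5.38 in DP.

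Among the 203 miRNAs, 4 with a sequence carried the CA repeat, miR-467f, miR-466q, miR-466i-3p and miR-362-3p. By values alone, M295 was below all 6 T-ALL arrays on 4 of the 4. The same held for 37 (27.2%) of those with a sequence and without the repeat. With the median as the scale M295 was below all 6 on 3 of the 4. miR-467f was at -6.30 on M295 and between -5.11 and -4.11 in T-ALL. miR-466q was at -7.32, not above background, against -5.89 to -4.76. miR-362-3p was at -6.24, also not above background, against -5.89 to -4.66. Among names above background on the 5 T-ALL arrays other than ES 1, 3 of 3 with the repeat and 45 of 121 without it (37.2%) were below all 5. The 3 are again miR-467f, miR-466q and miR-466i-3p. ACACAC occurs in 0.655% of the 1679 mouse mature sequences.

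**Figure D2:**
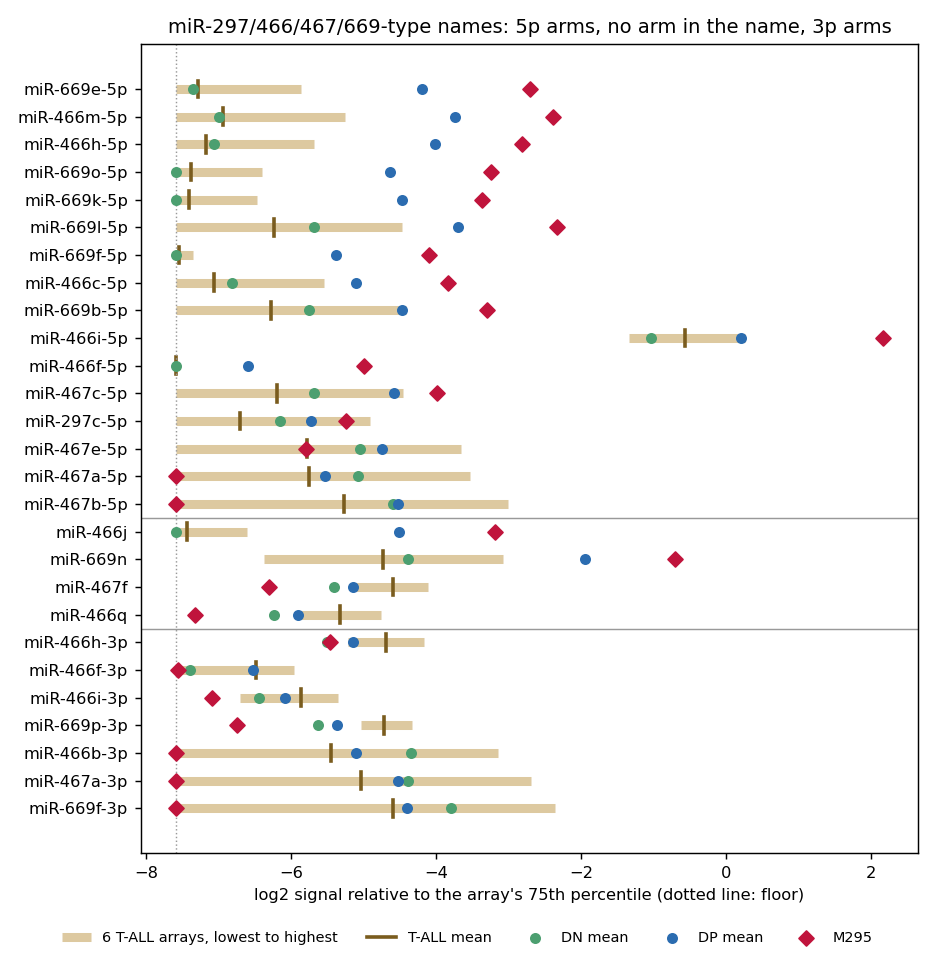
Log2 signals (horizontal axis) of the 27 miR-297, miR-466, miR-467 and miR-669 names above background on all 3 DN or all 3 DP arrays, in the order 5p, no arm and 3p from the top. Diamonds are M295, bars the range of the 6 T-ALL arrays with a tick at their mean, and dots the DN and DP means. M295 lies to the right of the bar for 12 of 16 names ending in 5p, to its left for 3 of 7 ending in 3p, and left of the tick for all 7 of those. Positions compare the values alone, whether or not an array was above background.

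The cluster of miR-96, miR-182 and miR-183, known from sensory neurons and as a regulator of lymphocyte expansion, was above T-ALL with 3 of 3 members. All 3 were chosen through M295 and could not count as below, and of the 147 miRNAs chosen so 73 were above. miR-96-5p was at -3.06 on M295 and between -7.59 and -5.04 on the T-ALL arrays (median -7.34), with 1 of 6 above background, and the line was 3.94-fold above that array, ES 3. miR-182-5p and miR-183-5p were at -4.66 and -5.12 and above background on none of the 6, so the line was at least 2.86-fold and 2.09-fold higher. None of the 3 was above background on any DN or DP array, so this cluster did not follow the DP stage. With the percentile over all mouse miRNAs 1 of the 3 was above the T-ALL arrays, and with normexp background correction 1, and 0 by 2-fold.

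miR-449a-5p, which has the seed of miR-34 and is known to restrain proliferation, was at 0.55 on M295. The T-ALL arrays ranged from -3.33 to -0.83 (median -2.83), and all were above background. The line was 2.61-fold above the highest, ES 1, followed by LS 1 at -1.16, and inside the range with the percentile over all mouse miRNAs. In the fit of the 12 primary arrays this miRNA rose in T-ALL against thymocytes (log2 fold change 2.46 ± 0.45 SE, limma adjusted p = 0.00147), and M295 lay beyond the T-ALL mean in that direction. miR-34a-5p itself was not above background on M295.

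Some miRNAs high on M295 were high on a few of the leukaemias. miR-9-5p, a miRNA best known from neurons, was at -1.69 on M295, -2.69 on LS 1, -3.76 on ES 1 and -5.18 on ES 3. It was at the floor on ES 2, LS 2 and LS 3 and on all 6 thymocyte arrays. Its partner miR-9-3p followed the same order, at -1.76 on M295 and -3.08 on LS 1. miR-31-5p, the miRNA listed as tumour-suppressive in T-ALL, was at -1.18 on M295, -2.91 on LS 1, -3.33 on ES 3, -3.50 on LS 3, and at or under -7.24 on the other 3. DN arrays had it at -4.92, -4.63 and -5.12, and DP arrays at the floor. The T-ALL arrays thus split within both stages for these miRNAs, and M295 was on the high side, 2.00-fold, 2.51-fold and 3.32-fold above LS 1 for miR-9-5p, miR-9-3p and miR-31-5p.

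Outside the lists, miR-2137 was 7.91-fold and miR-2861 3.55-fold above the nearest T-ALL array. miR-2137 was at 0.44 on M295, -4.18 to -2.55 in T-ALL (median -3.30), at -4.47, -4.37 and -4.66 in DN and at -5.01, -5.04 and -5.18 in DP. The thymocyte arrays were below all T-ALL arrays, so unlike the UG-repeat miRNAs it was lowest in DP. miR-21-5p, a miRNA induced on lymphocyte activation that promotes many tumours, was at 3.66 on M295 and at 1.39 to 3.42 in T-ALL (median 2.07), a gap of 0.25, and it was inside the range with the percentile over all mouse miRNAs, after quantile normalization and in the authors' deposited table. It was at 1.30, 1.41 and 1.12 in DN and -0.94, -0.89 and -1.27 in DP, so here the line was farthest from DP. Its partner arm miR-21-3p was at least 2.84-fold above T-ALL. miR-221-3p and miR-222-3p, tumour-promoting in many tissues, were not above background on M295.

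The clearest low miRNA was miR-128-3p, known for its roles in neurons and in lymphoid leukaemias. It was at -2.57 on M295 and between -1.07 and 0.29 on the T-ALL arrays (median -0.05), 2.82-fold below the nearest, ES 3. DN arrays were at 1.25, 1.33 and 1.09 and DP arrays at 1.67, 1.68 and 1.45. The line, the leukaemias and the thymocytes did not overlap. The gap was 0.78 with the median in place of the 75th percentile and at least 2-fold in the other settings. miR-706 was next, at the floor on M295 and between -6.50 and -4.26 in T-ALL, with 3 of its 4 probes lower, and then miR-451. Their gaps were 0.44 and 0.42 with normexp background correction and 0.00 with all spots of a probe required or with the higher floor. Leaving out ES 1 brought the count at least 2-fold below from 3 to 15, and leaving out ES 3 to 6. The 15 were taken over all miRNAs on the array above background on the remaining 5, and they include miR-181a-5p, miR-181b-5p, miR-23b-3p and the Sfmbt2-type miR-669f-3p, miR-669p-3p, miR-467a-3p, miR-466i-3p and miR-466f-3p.

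**Figure D3:**
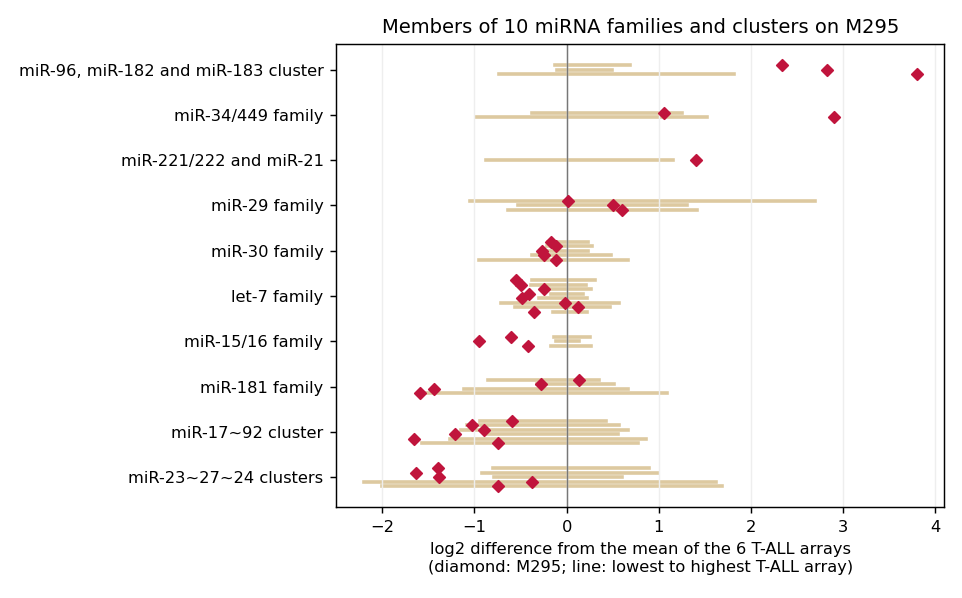
Difference from the mean of the 6 T-ALL arrays (horizontal axis, log2) for each member of 10 families and clusters that is among the 258 miRNAs. Diamonds are M295 and lines run from the lowest to the highest T-ALL array. The 3 members of the miR-96 cluster lie right of their lines, the 3 of miR-15/16 left, and 6 of 8 of let-7 slightly left.

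The miR-15/16 family, known to target Bcl2 and cell-cycle genes, has 6 names on the array, of which 3 are among the 258. All 3 were below every T-ALL array, against 37.3% of the 110 miRNAs. The others, miR-195-5p, miR-322-5p and miR-497-5p, were not above background on M295. miR-15b-5p was at 0.88 on M295 and 1.71 to 1.97 in T-ALL (median 1.83), at 1.75, 1.85 and 1.73 in DN and at 2.77, 2.77 and 2.59 in DP. The T-ALL arrays overlapped with DN and not with DP, and the line was 1.77-fold below the nearest of them. miR-16-5p (0.86, against 1.32 to 1.71) and miR-15a-5p (-0.11, against 0.14 to 0.57) were 1.38-fold and 1.19-fold below. With the median as the scale, 2 of these 3 family members stayed below the range. Their partner arms did not all lie low. miR-15a-3p, miR-16-1-3p and miR-16-2-3p were above all 6 T-ALL arrays, by at least 0.73, 1.14 and 0.77. They were chosen through M295 and could not count as below. miR-16-1-3p stayed above the range under 3 of the 7 other scalings. miR-15b-3p differed from the T-ALL mean by -0.71 and did not count as beyond the range.

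In the let-7 family, whose members share one seed and promote differentiation, 6 of the 8 among the 258 were below the T-ALL range, by at most 0.24 (let-7f-5p). Their median difference from the T-ALL mean, -0.38, was close to the -0.35 of all 110, and with the median as the scale 0 of 8 were below the range. In the miR-17~92 cluster, 6 of 6 were lower than the T-ALL mean in the main and all other scalings, with a median difference of -0.96. Those below every T-ALL array were miR-18a-5p (-2.96 on M295, -2.56 to -0.44 in T-ALL) and miR-19a-3p (-1.45, against -1.13 to 0.32), and with the median as the scale 0 were. ES 3 was the lowest T-ALL array for both. In the clusters of miR-23, miR-27 and miR-24, known to limit T-cell effector programmes, miR-23b-3p, miR-27b-3p and miR-24-3p were 1.64-fold, 1.50-fold and 1.50-fold below the range, while miR-23a-3p and miR-27a-3p were inside it. The miR-29 family was inside the range with 3 of 3 members, above the T-ALL mean in the main scaling by a median of 0.50 and under it with the percentile over all mouse miRNAs.

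In the miR-181 family 2 of 4 were below the T-ALL range, which is close to the 37.3% of all 110. miR-181a-5p was at -2.57 on M295, -2.52 to 0.11 in T-ALL (median -0.95), at -0.98, -0.83 and -0.68 in DN and at 1.80, 1.88 and 1.96 in DP. ES 1 was the one leukaemia array near the line, and without it the gap was 1.02. miR-181b-5p was also at -2.57, with T-ALL from -2.24 to -0.46, and DP at 0.33, 0.35 and 0.40. For these markers of the DP stage M295 was the array farthest from DP, the reverse of what the UG-repeat miRNAs showed.

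The comparison of DN with DP, fitted without M295, gave a scale on which the line could be placed. Of 229 miRNAs tested over the 12 primary arrays, limma called 67 between DN and DP (29.3%), 24 higher in DN (10.5%) and 43 higher in DP (18.8%). M295 was nearer the DP mean on 44 of the 67 (65.7%), while the 6 T-ALL arrays were nearer DP on 10.4% (ES 1 and ES 2) to 28.4% (LS 3). On the 43 miRNAs higher in DP it was nearer DP on 28 (65.1%), against 2.33 to 30.2% for the T-ALL arrays, and on the 24 higher in DN on 16 (66.7%), against 6 to 10 of 24 for the T-ALL arrays. Over the scalings M295 was nearer DP on 50.7 to 67.2% of those called, more than any T-ALL array in each scaling with both directions pooled. On the miRNAs higher in DN alone this did not hold with the median as the scale, where M295 was nearer DP on 35.5% and the highest T-ALL array on 45.2%.

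On the miRNAs higher in DP the line often lay outside the span between the stages, on either side. On 26 of the 43 miRNAs its value lay beyond the DP mean, among them 12 of the 12 of the Sfmbt2 type. On 14 of the 43 it lay beyond the DN mean. Of the 31 not of the Sfmbt2 type, 14 lay beyond DP and 14 beyond DN. The 5 largest differences with DP higher were those of miR-672-5p (log2 fold change, DP over DN, 3.81 with SE 0.48, limma adjusted p = 0.000254), miR-32-3p, miR-466m-5p, miR-468-3p and miR-669e-5p. M295 was beyond DP on each. The largest in the other direction were miR-451, miR-144-3p, miR-101a-3p, miR-21-5p and miR-494-3p. The line was at the level of DP or lower for the first 3, which were not above background on it, beyond DN for miR-21-5p and between the stages for miR-494-3p.

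The place of M295 nearer DP leaned on the Sfmbt2 type and the miRNAs with the UG repeat. Of the 60 called miRNAs that are among the 258, 41 are neither of the Sfmbt2 type nor listed with the UG repeat. On these M295 was nearer DP on 19 (46.3%), against 7.32 to 26.8% for the T-ALL arrays. For those higher in DP it was nearer DP on 9 of 23 (39.1%), and for those higher in DN on 10 of 18 (55.6%). M295 thus lay nearer DP more often than any T-ALL array with and without these miRNAs. On the 41 it lay nearer DP on fewer than it lay nearer DN, and this holds for the 41 only. The called miRNAs outside the 258, none of them above background on M295, are not in this count. Among them M295 was nearer DN for miR-195-5p. It was nearer DP for miR-362-3p, miR-33-5p, miR-20a-3p, miR-126-3p, miR-101a-3p and miR-144-3p. With the fit restricted to the slide of M295, where DN and DP have 1 array each and are assumed to vary like the other groups, 18 miRNAs were called and M295 was nearer DN on 5.56%. The number called was 101 without ES 3 and 44 without DP 3, and M295 was nearer DN on 30.2 to 41.6% whichever primary array was left out.

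**Figure D4:**
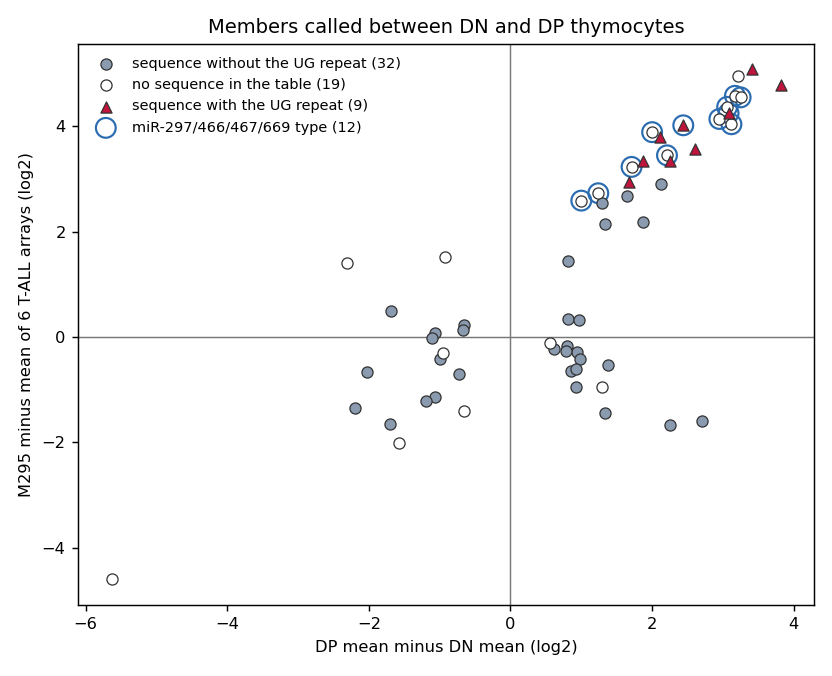
For the 60 miRNAs among the 258 that were called between DN and DP, the DP mean minus the DN mean (horizontal axis, log2) and M295 minus the mean of the 6 T-ALL arrays (vertical axis, log2). Triangles carry the UG repeat, open circles have no sequence in the table, and rings mark the miR-297, miR-466, miR-467 and miR-669 type. The 9 triangles and 12 rings lie at the upper right, and miRNAs without the repeat lie on both sides of 0 on the vertical axis.

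Correlation across miRNAs gave a different order from the called miRNAs. Over the 108 miRNAs above background on all 13 arrays, Spearman's correlation of M295 averaged 0.728 with the DN arrays, 0.706 with DP, 0.794 with ES and 0.828 with LS. It lay between 0.757 and 0.839 with single T-ALL arrays, while pairs of T-ALL arrays had 0.832 to 0.964. Over all 258 miRNAs the mean was highest with DP (0.765), followed by LS (0.721), ES (0.703) and DN (0.696). Without the Sfmbt2 type and the miRNAs with the UG repeat, 228 remained, and the means were 0.751 with DN, 0.749 with DP, 0.791 with ES and 0.793 with LS. Of the 258, 147 were chosen for being above background on M295 and not on every T-ALL array, which by itself lowers the correlation with T-ALL. Over the 203 miRNAs chosen on thymocytes the means were 0.775 with DP, 0.743 with LS, 0.706 with ES and 0.642 with DN, and that set was chosen in part for DP. These are descriptions across miRNAs of one library each, which share the array's scale and background.

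**Figure D5:**
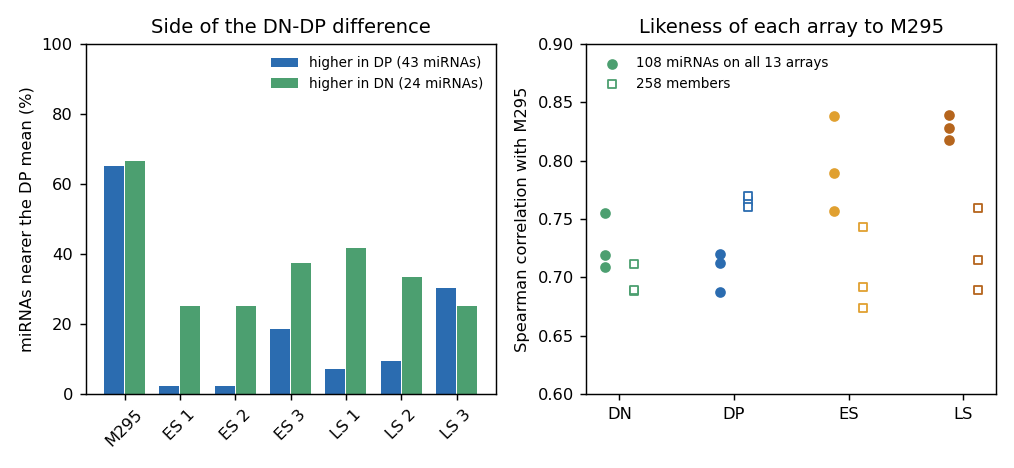
Left, the percentage of miRNAs called between DN and DP on which each array is nearer the DP mean, separately for the 43 higher in DP and the 24 higher in DN. Right, Spearman's correlation of M295 with each primary array over 108 miRNAs above background on all 13 arrays (filled circles) and over all 258 (open squares), on an axis from 0.6 to 0.9. M295 has the tallest bars on the left, and the DP squares are the highest squares on the right.

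Against the differences between T-ALL and thymocytes, M295 lay on the T-ALL side more often than not. Of the 229 miRNAs, 131 (57.2%) were called, 72 higher (31.4%) and 59 lower (25.8%) in T-ALL, and M295 was nearer the T-ALL mean on 81 (61.8%). It was nearer T-ALL on 48 of the 72 that rose and 33 of the 59 that fell in the leukaemias. Without the Sfmbt2 type it was nearer T-ALL on 81 of 115 (70.4%). The share was 46.3% with the percentile over all mouse miRNAs and 33.3% of the 30 called on the slide of M295 alone. Since the leukaemias came from spleen and the thymocytes from thymus, disease and organ cannot be told apart here.

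Of the 5 miRNAs that fell most in T-ALL, 4 were not above background on the line. They were miR-148a-3p (thymocyte mean -2.65, T-ALL mean -5.94, M295 at the floor), miR-155-5p (-3.12, -5.73 and -7.45), miR-340-5p and miR-322-5p, and miR-32-3p was the exception. Of the 5 that rose most, miR-721, miR-714, miR-3472 and miR-370-3p were between both means on M295, at 0.62, 0.32, 0.62 and 0.63 of the way from thymocytes to T-ALL, and miR-449a-5p was beyond T-ALL.

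The 6 miRNAs called between LS and ES by limma (2.62% of 229) did not place M295 with one stage. It was nearer ES for miR-344i, miR-3968, miR-690 and miR-712-5p and nearer LS for miR-3473 and miR-3473b. miR-3473b was at 1.26 on M295, -0.04 to 0.57 in ES and 1.41 to 1.79 in LS, and miR-3968 at 1.41 on M295, 1.42 to 2.01 in ES and 0.79 to 0.97 in LS. Without ES 3 the same comparison called 55, and without LS 1 it called 1.

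Erythroid, myeloid, endothelial and stromal markers were at background on the line. In bulk RNA, fewer cells of a type and less RNA per cell cannot be told apart. Of the erythroid markers 0 of 2 were above background on M295, with a summed scaled signal of 0.00781, against 0.0158 to 1.60 on the T-ALL arrays and 0.751 to 1.01 in DN. miR-451, the defining one, was at -7.00 on M295 and between -5.98 and 0.58 in T-ALL (median -1.97). It was at least 2.03-fold below ES 2, the lowest T-ALL array. Of the myeloid markers 0 of 5 were above background (sum 0.00529, against 0.00737 to 7.23 in T-ALL, the highest being ES 3), and miR-223-3p was the one above background on ES 3. ES 3 was also the T-ALL array nearest to M295 for miR-210-3p, miR-96-5p, miR-2137 and miR-128-3p, and the part of other cells in these values was not tested. Of 10 endothelial and stromal markers 0 were above background on M295 or on any T-ALL array.

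Most of the listed T-lineage and lymphocyte miRNAs were above background. Of 9 haematopoietic and T-lineage miRNAs 6 were above background on M295, with a summed signal of 7.39, within the 6.00 to 13.1 of the T-ALL arrays. miR-142-3p, known in all blood cells, was at 2.51 on M295 and 2.17 to 3.18 in T-ALL. It was the highest of the list on M295 and weighs most in the sum. miR-181a-5p and miR-181b-5p were below the T-ALL range, by 0.06 and 0.33. miR-146a-5p, miR-155-5p and miR-191-5p were not above background on M295. The mature lymphocyte markers summed to 1.24, within 0.598 to 2.41, with miR-150-5p at -3.30 and miR-342-3p at -1.50, which was 0.04 above the T-ALL range. Of 7 epithelial markers 2, miR-200c-3p and miR-141-3p, were above background, with a sum of 0.0435, within 0.0106 to 0.0546. The liver, muscle and brain markers summed to 0.374, above the 0.00206 to 0.158 of T-ALL, through miR-9-5p and miR-206-3p, and the other 5 were not above background.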

How the data were processed

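The 13 samples were hybridised to 1-colour (Cy3) Agilent arrays with miRBase 18 names. Per the file headers, images were read with Feature Extraction 10.7.3.1, and the deposited intensity of each spot is background-subtracted and not scaled between arrays. The authors' deposited value table holds log2 values, whose columns share the same quantiles. Of tools, the notes of the submitters list RMA, MAS5, affy and GCOS, without roles. After removal of control and outlier spots, the mean over spots gave each probe and the mean over probes each miRNA. Values were scaled to the 75th percentile of the 108 miRNAs above background on all 12 primary arrays, within each array, floored at -7.59 and put on the log2 scale. Above background means that at least 50% of the kept spots of 1 probe were marked well above background. A side not above background took the array's lowest signal above background where its own value was lower, and the fold is then written as at least. The number of arrays limits the precision, and no spot was saturated.

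The 3 arrays per primary group are the authors' biological replicates. The 12 primary arrays were fitted in limma 3.58.1 (R 4.3.3, with the data.table package, version 1.17.8), 1 mean per group, without M295 and without an intensity trend, on 229 miRNAs above background on all 3 arrays of a group, with Benjamini-Hochberg adjusted p under 0.05. Scripts were tested on simulated data. The miRNAs described, the 29 lists and the tests were chosen with earlier results of these data known. Named were the 15 farthest beyond the range on each side at 2-fold, up to 4 per list, the 5 largest calls per direction and all LS and ES calls; further names were chosen after their values were seen. Sequences are RefSeq's, matched by name. Alternatives were other scalings, background corrections, detection rules, floors, folds, subsets of arrays and blocks. A set of 203 miRNAs above background on all 3 DN or all 3 DP arrays was added after seeing the data, and was counted on the values alone. Viral probes were left out of the counts.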

Additional observations from a re-analysis of the deposited data

Results flagged for a closer look

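Besides mouse miRNAs the array carries 57 names of viral miRNAs, which no comparison above uses. Of these, 10 were above background on M295, against 2 to 5 on the 12 primary arrays, and this was picked out because the signal lies outside the main measurement and above the level of the other arrays. Of the 1122 mouse names, 257 were above background on M295, against 115 to 244 on the primary arrays, so M295 had the most there too. The viral names with the widest distance from T-ALL were mghv-miR-M1-2-5p (-2.51 on M295, at most -5.77 in T-ALL and -3.39 in DP) and mghv-miR-M1-6 (-4.61, at most -6.55 in T-ALL and -4.95 in DP). M295 was also above the highest primary array for mcmv-miR-m01-2 (-5.64, against -6.15), mghv-miR-M1-11-5p (-5.80, against -5.99), mghv-miR-M1-8 (-6.01, against -6.14) and mghv-miR-M1-2-3p (-5.46, against -5.76). That array was a DP array for all of these but mghv-miR-M1-2-3p. As with the UG-repeat miRNAs, the highest DP array was above the highest T-ALL array for mghv-miR-M1-2-5p and mghv-miR-M1-6. mcmv-miR-M23-1-5p and mcmv-miR-m88-1 were above background on all 12 primary arrays. What these probes bound was not tested.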

How the results depend on the processing

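The scaling, the detection rule and the choice of T-ALL arrays each moved the counts beyond the T-ALL range. With the 75th percentile over all mouse miRNAs, 19 miRNAs were at least 2-fold above and 16 below, 39 above and 67 below by any amount, and M295 was nearer T-ALL on 46.3% of the calls against thymocytes. With the median as the scale 19 were below by any amount, M295 was nearer DN on 49.3%, and limma called 0 between LS and ES. Quantile normalization gave 29 and 8 at 2-fold, 50 above, and 2 LS and ES calls. The authors' deposited table gave 24, 7 and 48. Normexp gave 17, 1 and 44, with 42 DN and DP calls and 3 for LS and ES. Scaling on all 13 arrays or on the scanner's total signal gave the main counts at 2-fold.

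Requiring all spots of a probe gave 21 above, 1 below and 47 above by any amount, with mean Spearman correlations of 0.678 (DN) and 0.635 (DP). Requiring any spot gave 71 above and 5 below, with 0.793 (DN), 0.785 (DP), 0.862 (ES) and 0.874 (LS). Over all 258 they were 0.696, 0.765, 0.703 and 0.721. A floor 2 units higher left 1 below. T-ALL arrays on the slide of M295 alone gave 6 below, and LS alone gave 71 above, 31 below and 103 below by any amount. At 4-fold there were 18 above and 0 below.

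The slide as a block gave 3 LS and ES calls, and so did the replicate block. In the check of pairing 6 of 18 correlations between same-numbered arrays exceeded 0.1 (-0.34 to 0.50). All 3 between DP and LS did and those of no other group pair did at every number, and the labels name nothing that a number shares, so the arrays were taken as unpaired. The slide of M295 alone gave 18 DN and DP calls (5.56% nearer DN), 30 between T-ALL and thymocytes (33.3% nearer T-ALL) and 0 between LS and ES, and no filter on dim miRNAs gave 0 there.

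Leaving out 1 array gave 46 to 66 at least 2-fold above, 3 to 15 below, 42 to 68 below by any amount, 44 to 101 DN and DP calls, 110 to 154 between T-ALL and thymocytes, and 1 to 55 between LS and ES. The difference from the T-ALL mean turned for let-7g-5p (0.10) and miR-30c-5p (0.07) with the median, and for miR-200c-3p (-0.11) and miR-141-3p (-0.03) with normexp. The cause of these shifts was not tested. Signals near background limit the high side, and the noisy ES 1 array the low side.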

Other observations

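Several lists gave little on M295. None of miR-99a-5p, miR-99b-5p, miR-100-5p, miR-125a-5p, miR-125b-5p, miR-10a-5p and miR-10b-5p was above background on M295, while the other arm miR-125a-3p was, 1.74-fold above T-ALL, and so was miR-99b-3p, inside the range. Of 87 names of the imprinted Dlk1-Dio3 cluster, 4 were. miR-539-5p was at least 2.62-fold above T-ALL, miR-494-3p was 1.46-fold below it, and miR-134-5p and miR-370-3p were inside the range. The miR-30 family, known from many differentiated tissues, was lower than the T-ALL mean with 5 of 5 members (median difference -0.17, against -0.35 over the 110 miRNAs above background on all 7 arrays), and higher with 5 of 5 when the median was the scale.

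On M295, 24 mouse miRNAs were above background that were so on no other array, against at most 14 (ES 3) for any primary array. It also had the highest share of spots marked well above background, 19.8%, against 11.5 to 18.1%.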
